A study of Drosophila melanogaster with 54 samples.

Results

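Translational efficiency was compared between activated Drosophila eggs laid by png mutant mothers and mature wild type oocytes. The comparison used 8 of the 54 libraries of the series, chosen by their labels: for each group, ribosome-protected fragments (footprints) and RNA, 1 library of each kind without and 1 with cycloheximide, a drug that stalls elongating ribosomes. The png eggs came from png1058/png1058 virgin females mated to twine (HB5) males, which make no sperm, so that the eggs were activated but not fertilised, and were collected over 2 hours. The mature oocytes came from ovaries of 4-day-old OregonR females, and the matching 4 libraries of activated eggs of OregonR females mated to the same males served to show where png eggs differed from normal activation. No png mutant oocytes were among the samples, so in the first comparison the stage, the png genotype and the rest of the genetic background cannot be told apart. The labels name 1 allele and give no number of animals or lysates per library. Of 5842 transcripts listed, 5840 had a mean RNA level of at least 1 RPKM in the png egg and oocyte libraries, and all 5840 were tested. RPKM are reads scaled to the size of the library and to a length, which by the values was the coding sequence less 50 bases. The 2 transcripts left out had a mean of 0.271 RPKM (Msp300) and 0.993 RPKM (mgl), and the lowest kept had 1.06 RPKM (RhoGAP100F).

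A mature Drosophila oocyte is stored with maternal mRNA and is nearly silent in transcription, so that the proteins needed for the end of meiosis and the first embryonic divisions are made by changing which stored mRNAs are translated. Egg activation, which happens as the egg passes down the oviduct and needs no fertilisation, sets off this change. PAN GU, a protein kinase made of the catalytic subunit Png and the partners Plu and Gnu, becomes active at that time and is required for the translation of cyclin B and smaug mRNA, and Smaug in turn starts the clearance of maternal mRNA. Png eggs are therefore eggs that were laid and activated without normal PAN GU activity.

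Translational efficiency is given here as log2(footprint RPKM + 1) minus log2(RNA RPKM + 1) for 1 pair of libraries, so that a value of 0 means as many footprint as RNA RPKM and each unit a doubling. Each group has 2 such pairs, without and with cycloheximide, and values below are given in that order. The p-values come from limma, a linear model fitted to all 6 pairs with a term for the drug and adjusted over all 5840 transcripts by the Benjamini-Hochberg method, and a transcript is said to have risen or fallen where the adjusted p was under 0.05. Since no group was repeated within a drug state, the p-values measure only how far the drug effect differed between groups, which may be technical, and not the spread between biological samples. RNA was selected by its poly(A) tail, so a shortened tail and less RNA cannot be told apart. No spike-in is named for these libraries, and the values are relative within a library.

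Rounded read numbers were computed from the steps of the RPKM values. Footprint libraries held 9974000 and 10405000 reads in png eggs, 8767000 and 9863000 reads in activated eggs and 4753000 and 3301000 reads in oocytes. RNA libraries held 12174000 to 17433000 reads. Oocyte footprints were thus counted from fewer reads: 4.34% of 3894 transcripts with a read estimate had under 10 footprint reads in the oocyte library with cycloheximide, against 1.23% in the png egg library without it. Oocyte libraries also held mRNA of follicle cells, the ovarian cells that make the eggshell. Of 23 follicle cell markers 2 were in the table, Cp15 and Cp16. Their summed footprints were 0.00270% and 0.00663% of the total over listed transcripts in png eggs, and 3.44% and 10.2% in oocytes. In the oocyte library with cycloheximide, Cp15 alone was the most abundant footprint transcript (9.70%). Fewer follicle cells and less RNA in each of them cannot be told apart in such lysates. Of the germ line markers, osk RNA was at 316 and 318 RPKM in png eggs, against 197 and 204 RPKM in oocytes. None of 3 yolk genes and 16 markers of muscle, fat body and blood cells was among the transcripts tested. Every transcript listed had a value above 0 in all 12 libraries of the footprint series. An mRNA missing from eggs may thus have gone unlisted, so the absence of these markers does not test the purity of the oocytes.

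The mRNA of png itself was present in every library, at 92.1 and 96.9 RPKM in png eggs, 101 and 102 RPKM in activated eggs and 113 and 114 RPKM in oocytes. Since the labels do not say what png1058 changes in the gene, its mRNA level does not test the genotype. Footprints on png were at 173 and 189 RPKM in png eggs, 18.1 and 10.3 RPKM in activated eggs and 63.7 and 33.7 RPKM in oocytes. Translational efficiency of png was highest in the mutant eggs and lowest in wild type eggs, with no overlap between the groups. It rose by 2.20 ± 0.32 (log2, SE; adjusted p = 9.23e-06) in png eggs over oocytes, and was 3.74 higher in png eggs than in activated eggs.

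Translation in png eggs differed from that in oocytes for 3487 transcripts. Translational efficiency was higher in png eggs than in oocytes for 2099 of 5840 transcripts (35.9%) and lower for 1388 (23.8%), while 2353 were not called. The changes were large: 572 transcripts rose and 289 fell by at least 4-fold, and 157 rose and 66 fell by at least 8-fold. In 3481 of the 3487 called transcripts all 4 differences between a png egg pair and an oocyte pair had 1 sign. The calls were made from these same pairs, so this is no separate evidence. Set beside this, activated wild type eggs differed from the same oocytes in 2706 transcripts (46.3%) that were higher and 1419 (24.3%) that were lower. Png eggs against activated eggs, in which genotype and background cannot be told apart, gave 1881 transcripts (32.2%) higher and 2236 (38.3%) lower.

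Translational efficiency spread more widely over transcripts in eggs of both kinds than in oocytes. From the 5th to the 95th percentile it covered 6.01 and 5.82 log2 units in png eggs, 5.68 and 5.79 in activated eggs and 4.70 and 4.67 in oocytes. Across the 5840 transcripts, translational efficiency of png eggs correlated with that of oocytes with Pearson's r of 0.64 and 0.66 in the states without and with the drug, and with that of activated eggs with 0.33 and 0.33, while the drug states of 1 group correlated with 0.99 in png eggs, 0.98 in activated eggs and 0.94 in oocytes. These are correlations across transcripts, which are not independent, and the labels do not say whether the drug states of a group were collected separately.

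The median transcript moved with the drug. Median translational efficiency was -0.36 and -0.35 in png eggs, 0.03 and 0.09 in activated eggs and -0.39 and -0.89 in oocytes. The median difference of png eggs from oocytes was therefore -0.01 without and 0.44 with cycloheximide, and 0.21 in the fit, against which the changes below should be read. With each pair centred on its median 1891 transcripts were higher and 2049 lower, so that the share of rises among the calls was 48.0% in place of 60.2%. Rescaled without the follicle cell genes, the median difference was 0.12, with 2039 transcripts higher and 1541 lower. The total of 3487 calls was 2128 with the png egg pair without cycloheximide left out, of which 680 were lower, and 2217 with the other png egg pair left out, of which 1252 were higher. Differences within each drug state nonetheless ran parallel across transcripts (Pearson's r 0.93, Spearman's rho 0.92), with the same sign in 83.4% of them.

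The changes were changes in footprints more than in RNA. From the 5th to the 95th percentile, the log2 difference of png eggs from oocytes ran from -1.73 to 2.52 for footprints and from -0.53 to 0.62 for RNA. Footprints were higher for 2125 transcripts (36.4%) and lower for 1160 (19.9%), of which 1588 and 821 by at least 2-fold. RNA was called higher for 2122 (36.3%) and lower for 1073 (18.4%), but only 52 and 68 of these differed by at least 2-fold, and the RNA calls rest on the close likeness of the drug states: a model that takes its spread from footprint and RNA libraries together called 291. Among the 2099 transcripts whose efficiency rose, the median footprint difference was 1.42 and the median RNA difference -0.06, and among the 1388 that fell these were -1.09 and 0.30.

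**Figure D1:**
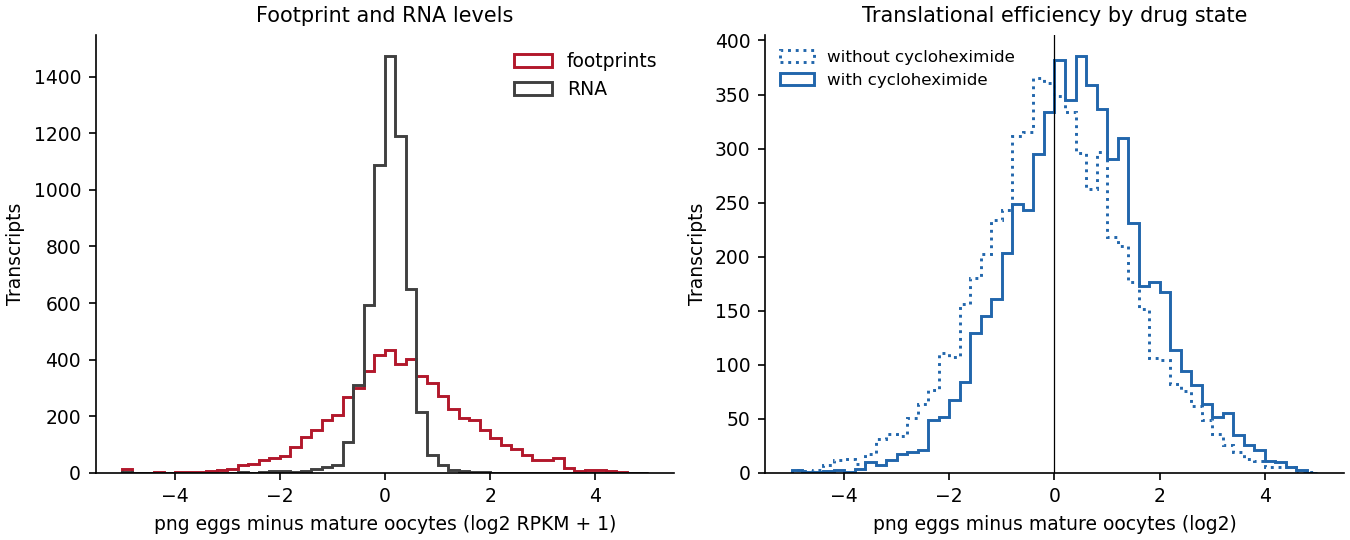
Left, log2 differences of footprint (red) and RNA (grey) levels between png eggs and mature oocytes for 5840 transcripts, in bins of 0.2 with values beyond 5 put in the end bins; footprints spread widely, from -1.73 to 2.52 at the 5th and 95th percentiles, and RNA from -0.53 to 0.62. Right, differences in translational efficiency without (dotted) and with (solid) cycloheximide; the median lies at -0.01 without and at 0.44 with the drug.

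**Figure D2:**
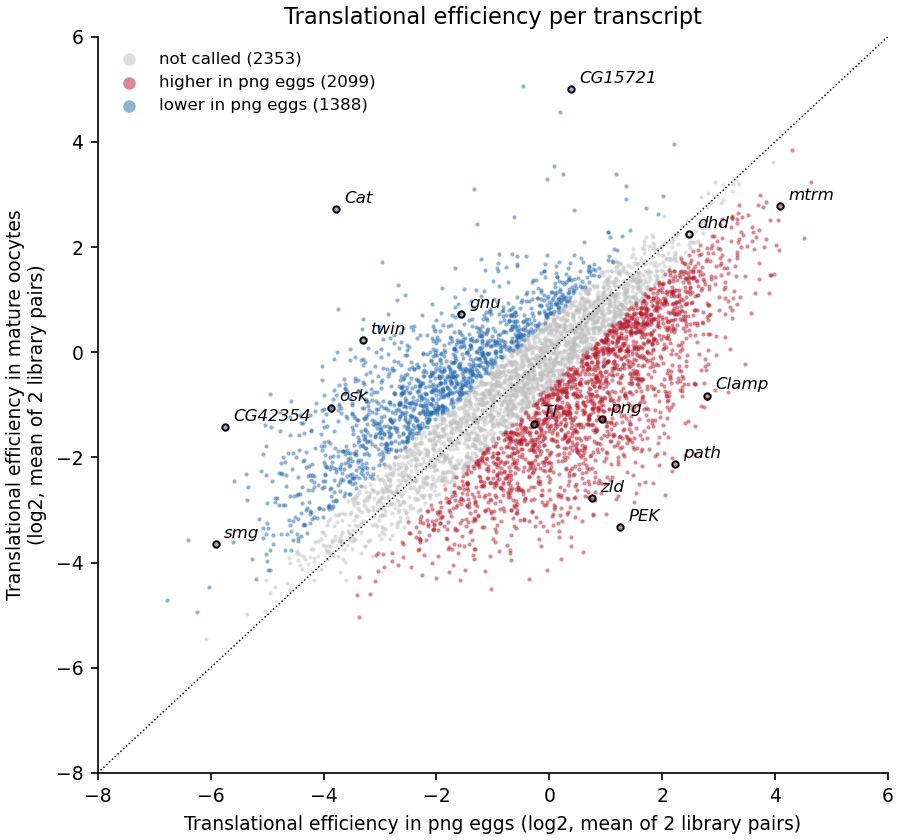
Translational efficiency of each of 5840 transcripts in png eggs (horizontal) and mature oocytes (vertical), each the mean of 2 library pairs in log2 units, with 2099 higher transcripts in red, 1388 lower in blue and 2353 not called in grey. The dotted line marks equal values; Cat lies far above it and PEK, path, zld and Clamp far below.

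The 14 largest rises were mRNAs with few footprints in oocytes for their RNA level. PEK, the kinase that answers stress of the endoplasmic reticulum by phosphorylating eIF2alpha, had 127 and 112 RPKM of footprints in png eggs, against 5.14 and 3.79 RPKM in oocytes. Its RNA was at 48.2 and 50.2 RPKM in png eggs, against 48.4 and 58.9 RPKM in oocytes, so the groups were far apart in footprints and overlapped in RNA (translational efficiency 4.59 ± 0.29 higher, log2 and SE; adjusted p = 1.34e-09). Smo, the signal transducer of the Hedgehog pathway, had 98.6 and 84.9 RPKM of footprints in png eggs, against 3.51 and 2.28 RPKM in oocytes (4.42 ± 0.30). The nuclear receptor gene ftz-f1 rose by 4.17 ± 0.28 and the CCAAT-binding factor subunit Nf-YA by 4.36 ± 0.28. Among genes of the cell surface and cytoskeleton, the catenin gene p120ctn rose by 4.33 and the actin regulator Vrp1, a verprolin, by 4.35. The amino acid transporter mnd rose by 4.22, the segment patterning gene lin by 4.39, the glycosyltransferases GlcAT-S and shams by 4.18 and 4.10, and CG14657, CG5235 and CG4615 by 4.76, 4.51 and 4.15. All 14 had 4 differences between pairs above 0, as the choice of named genes required. Values for shams and CG4615 rest on few oocyte footprint reads, 5 and 3 for shams and 2 and 4 for CG4615, so their size is uncertain.

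Set against wild type eggs, these rises were of several kinds. Path, another amino acid transporter, had 536 and 541 RPKM of footprints in png eggs, 4.34 and 4.90 RPKM in activated eggs and 23.7 and 31.3 RPKM in oocytes, with RNA between 114 and 139 RPKM throughout. Png eggs thus lay on the other side of oocytes from wild type eggs: the difference was 4.36 ± 0.30 from oocytes, and 6.75 from activated eggs (adjusted p = 4.44e-12). Shams had 35.8 and 39.6 RPKM of footprints in png eggs, 1.87 and 2.93 RPKM in activated eggs and 1.01 and 0.875 RPKM in oocytes. Of the 14, 10 were higher in png eggs than in activated eggs (limma, adjusted p under 0.05), beside 32.2% of all transcripts. Nf-YA (0.19), ftz-f1 (0.06), CG4615 (0.43) and Vrp1 (0.58) were not called in that test. The 14 were chosen by their rise in the same png egg pairs, so the count of 10 is no separate evidence.

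The largest fall was that of Cat, which encodes catalase, the enzyme that breaks down hydrogen peroxide. Cat footprints were at 1.43 and 2.09 RPKM in png eggs, 101 and 88.4 RPKM in activated eggs and 138 and 237 RPKM in oocytes, while Cat RNA was at 36.2 and 37.5 RPKM in png eggs, 22.1 and 22.5 RPKM in activated eggs and 23.9 and 29.6 RPKM in oocytes. Footprints of png eggs stood far below both other groups and RNA somewhat above (translational efficiency -6.51 ± 0.28, adjusted p = 1.23e-11). In reads, Cat had 21 and 32 footprints in png eggs, against 968 and 1150 in oocytes. The antiviral gene pst fell by 4.57 ± 0.29 with 55.3 and 54.1 RPKM of RNA in png eggs, against 8.17 and 11.5 RPKM in oocytes. For pst more than for any other of the 14, the fall in efficiency went with a rise in RNA (2.38, log2).

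Several of the falls were mRNAs whose efficiency was highest in wild type eggs. CG42354 had 0.550 and 0.790 RPKM of footprints in png eggs, 173 and 189 RPKM in activated eggs and 15.9 and 11.4 RPKM in oocytes. Its efficiency fell by 4.32 ± 0.31 in png eggs from oocytes and differed from activated eggs by -7.89, and the 3 groups did not overlap. The png egg footprints of CG42354 were below the 1 RPKM added to each value, so the size of these differences is uncertain. The order of group means seen for CG42354 also held for CG18004, the Ly6 family gene cold, CG34159, CREG, the RNA exonuclease gene Rexo5 and Paip2. The protein of Paip2 inhibits poly(A)-binding protein. From CG18004 to Paip2, the log2 differences from oocytes were -4.17, -3.94, -3.75, -3.67, -3.77 and -3.96, in that order. Those from activated eggs were -5.95, -5.81, -6.15, -5.30, -4.85 and -4.58. The other falls were CG12065 (-4.68), CG13384 (-3.76), CG12942 (-3.70) and CG13625 (-3.66). Further png egg footprints were near or below the 1 RPKM added to each value. These were CG12065 (0.896 and 1.48 RPKM), CG13625 (1.06 and 1.17 RPKM), CREG (1.20 and 1.48 RPKM), CG13384 (1.22 and 1.85 RPKM) and CG18004 (1.58 and 2.09 RPKM). Footprints of Cat, given above, were near it as well. The size of all these falls is therefore uncertain.

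CG15721 was a fall of another kind. Its RNA was at 0.0552 and 0.0218 RPKM in png eggs, 0.0294 and 0.0312 RPKM in activated eggs and 21.5 and 19.1 RPKM in oocytes, and its footprints were at 0.304 and 0.401 RPKM in png eggs, 0.606 and 0.192 RPKM in activated eggs and 585 and 794 RPKM in oocytes. Both kinds of egg held almost none of the mRNA, so its efficiency there rests on the pseudocount of 1 RPKM. RNA of the follicle cell mRNAs Cp15 and Cp16 was also far lower in png eggs. Cp15 RNA was at 13.7 and 10.2 RPKM in png eggs, above the pseudocount, against 4181 and 7628 RPKM in oocytes. Cp16 RNA was at 0.198 and 0.156 RPKM in png eggs, against 99.9 and 288 RPKM in oocytes. Whether loss of follicle cells took part in the fall of CG15721 was not tested. The other 13 falls kept their RNA in png eggs, at or above the oocyte level (log2 difference 0.19 to 2.38).

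**Figure D3:**
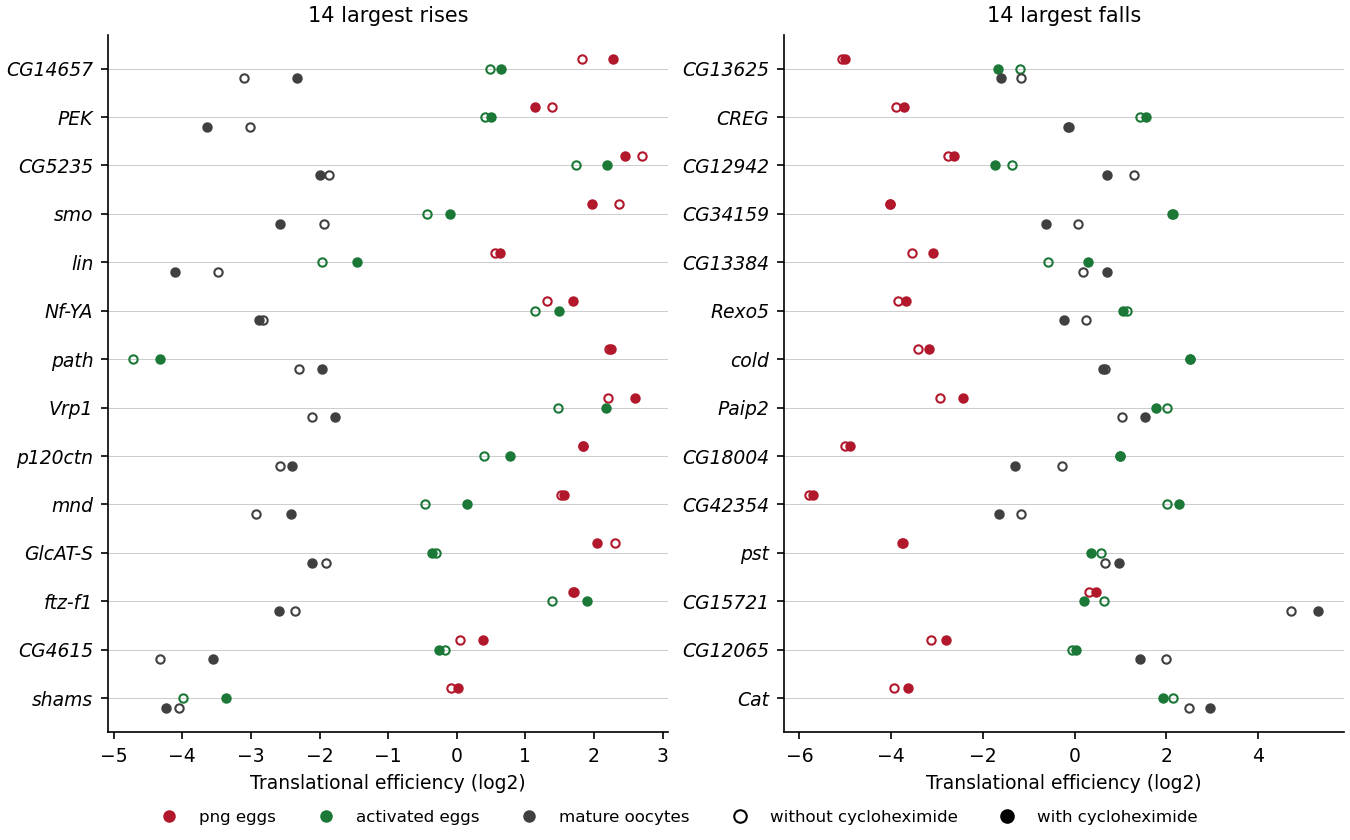
Translational efficiency (log2) of the 14 transcripts with the largest rise (left) and the 14 with the largest fall (right) in png eggs against mature oocytes, with png eggs in red, activated eggs in green and oocytes in grey, each with 1 pair without (open) and 1 with (filled) cycloheximide. For path and for CG42354 the png eggs and activated eggs lie on opposite sides of the oocytes.

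Of the 28 regulators of the passage from oocyte to embryo that were measured, 11 rose, 8 fell and 9 were not called (39.3% and 28.6%, near the 35.9% and 23.8% of all transcripts). In the kinase complex, png rose as given above, gnu fell and plu was not called. Footprints on gnu, the subunit whose binding activates the kinase, were at 136 and 195 RPKM in png eggs, 78.6 and 105 RPKM in activated eggs and 823 and 595 RPKM in oocytes. Gnu fell by 2.29 ± 0.32 (adjusted p = 6.71e-06), with both kinds of egg below oocytes. Plu had 456 and 525 RPKM of footprints in png eggs, against 571 and 281 RPKM in oocytes, and these overlapped (0.37, adjusted p = 0.21); without the oocyte pair without cycloheximide plu was called higher (0.74, adjusted p = 0.00029).

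The mRNAs of CycA and CycB were far less efficiently translated in png eggs than in activated eggs. CycA, a cyclin of mitotic entry, had 123 and 142 RPKM of footprints in png eggs, 4016 and 3765 RPKM in activated eggs and 140 and 53.0 RPKM in oocytes. Efficiency of CycA was not called between png eggs and oocytes (0.06 ± 0.35, adjusted p = 0.892), but the oocyte pairs lay on either side of png eggs: CycA was called higher in png eggs without the oocyte pair without cycloheximide (0.84, adjusted p = 0.000826) and lower without the pair with it (-0.72, adjusted p = 0.00351). No direction can be given for it, and its difference from activated eggs was -5.99 (adjusted p = 3.76e-11). CycB had 393 and 471 RPKM in png eggs, 7668 and 7178 RPKM in activated eggs and 1612 and 321 RPKM in oocytes, where the drug states lay far apart. Its fall of 1.20 ± 0.42 (adjusted p = 0.0191) rests on the oocyte pair without cycloheximide: without that pair the difference was 0.029, and the call was also lost without the png egg pair without the drug (-0.48), without the drug term and in the model of 12 libraries. The difference of CycB from activated eggs was -5.13. CycB3, the cyclin that promotes anaphase of meiosis, took another course and rose by 1.19 ± 0.28, with 442 and 488 RPKM of footprints in png eggs, 1116 and 1060 RPKM in activated eggs and 351 and 147 RPKM in oocytes; its call was lost without the png egg pair with cycloheximide (0.82).

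Of the Cdc25 phosphatases, which activate the cyclin-dependent kinase, the meiotic gene twe rose by 1.74 ± 0.25 and the mitotic gene stg fell by 1.03 ± 0.35. The fall of stg was not called without the oocyte pair without cycloheximide (-0.46) or without the png egg pair without it (-0.62). Polo, a kinase of meiosis and mitosis, had 645 and 584 RPKM of footprints in png eggs, against 130 and 137 RPKM in oocytes, at like RNA levels (2.14 ± 0.26, adjusted p = 1.59e-06). Its inhibitor mtrm rose by 1.32 ± 0.24, with 5183 and 4857 RPKM of footprints in png eggs, 135 and 190 RPKM in activated eggs and 3990 and 3657 RPKM in oocytes; without the png egg pair without the drug the adjusted p of mtrm was 0.0544. Mtrm stood 5.78 above activated eggs, and its RNA was lower in png eggs than in oocytes (-0.93). The female meiotic activator of the anaphase-promoting complex, cort, fell by 0.85 ± 0.31 with 44.4 and 46.3 RPKM in png eggs, 4.56 and 4.48 RPKM in activated eggs and 101 and 64.2 RPKM in oocytes. That call was lost without either png egg pair (-0.67 and -1.03) and without the oocyte pair without the drug (-0.48). The mitotic activator fzy was not called (0.35), but was without the oocyte pair without the drug (0.55, adjusted p = 0.00706). Sra, a regulator of calcineurin needed for egg activation, was not called either (-0.42, adjusted p = 0.236) against oocytes, and was called lower with pairs centred on their medians (-0.71, adjusted p = 0.0128) and without the oocyte pair with the drug (-0.66, adjusted p = 0.0163). Against activated eggs the difference of sra was -4.27.

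Smg, which encodes the repressor Smaug, had 11.1 and 12.7 RPKM of footprints in png eggs, 1349 and 1092 RPKM in activated eggs and 66.5 and 11.5 RPKM in oocytes. Its RNA was at 753 and 791 RPKM in png eggs, 232 and 212 RPKM in activated eggs and 353 and 378 RPKM in oocytes. Png eggs had the highest smg RNA and, with the oocyte library with cycloheximide, the fewest footprints. Efficiency fell by 2.25 ± 0.45 (adjusted p = 0.000324) from oocytes and differed from activated eggs by -8.36. In the oocytes smg was at -2.39 without and -4.92 with the drug, so the size of its fall depends on the drug state.

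The repressors and regulators of stored mRNA did not move as 1 group. The RNA helicase gene me31B fell by 2.35 ± 0.28 from oocytes and was not called against activated eggs (-0.31, adjusted p = 0.326). Its footprints were at 1044 and 997 RPKM in png eggs, 1235 and 1472 RPKM in activated eggs and 4268 and 3784 RPKM in oocytes. Tral, a partner of Me31B, rose by 1.36 ± 0.25, with 6078 and 6304 RPKM in png eggs, 1297 and 1320 RPKM in activated eggs and 4289 and 2553 RPKM in oocytes. The eIF4E-binding repressor cup was not called (-0.06, adjusted p = 0.845), and was 2.11 higher in png eggs than in activated eggs. Brat and pum, which act together on nanos response elements, rose by 1.71 ± 0.33 and 1.35 ± 0.32; pum lost its call without the png egg pair with cycloheximide (1.05). The cytoplasmic poly(A) polymerase gene wisp fell by 0.95 ± 0.31, a call lost without either png egg pair (-0.80 and -1.10).

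Patterning mRNAs were split. Osk, the organiser of germ plasm, fell by 2.81 ± 0.32, with 20.2 and 21.5 RPKM of footprints in png eggs, 27.7 and 26.7 RPKM in activated eggs and 106 and 86.6 RPKM in oocytes. Both kinds of egg were low, and they were not called apart (-0.61, adjusted p = 0.0907). Bcd, the anterior determinant, rose by 2.40 ± 0.30, with 11.1 and 12.6 RPKM in png eggs, 27.3 and 23.3 RPKM in activated eggs and 0.523 and 0.502 RPKM in oocytes. The oocyte footprints of bcd were below the 1 RPKM added to each value, so the size of its rise is uncertain. Png eggs thus lay between the other groups, with a difference of -1.51 from activated eggs. The dorsoventral receptor gene Tl rose by 1.09 ± 0.26 over oocytes and differed from activated eggs by -4.70; its call was lost without either png egg pair (1.02 and 1.15). The gap gene hb and the posterior determinant cad were not called (0.47 and 0.36), and differed from activated eggs by -2.76 and -2.17. Without the oocyte pair without the drug both were called higher than oocytes (hb 1.22, adjusted p = 6.46e-06; cad 0.91, adjusted p = 0.000101), and without the pair with it they were at -0.28 and -0.19.

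Among genes that prepare the zygotic genome, zld, the pioneer factor, had 151 and 155 RPKM of footprints in png eggs, 346 and 399 RPKM in activated eggs and 15.1 and 8.48 RPKM in oocytes, at RNA levels of 66.0 to 92.5 RPKM. It rose by 3.54 ± 0.32 (adjusted p = 4.41e-08), and differed from activated eggs by -1.62. The germ line thioredoxin gene dhd, needed for the unpacking of sperm chromatin, had 27212 and 28943 RPKM of footprints in png eggs, 1197 and 870 RPKM in activated eggs and 27731 and 32445 RPKM in oocytes. Dhd in png eggs was not called against oocytes (0.23 ± 0.27, adjusted p = 0.467), was called higher without the oocyte pair with cycloheximide (0.48, adjusted p = 0.0379), and was 4.71 above activated eggs. The embryonic linker histone gene BigH1 was not called (0.43) except without the oocyte pair without the drug (0.72, adjusted p = 0.000957), and lay 0.66 above activated eggs.

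**Figure D4:**
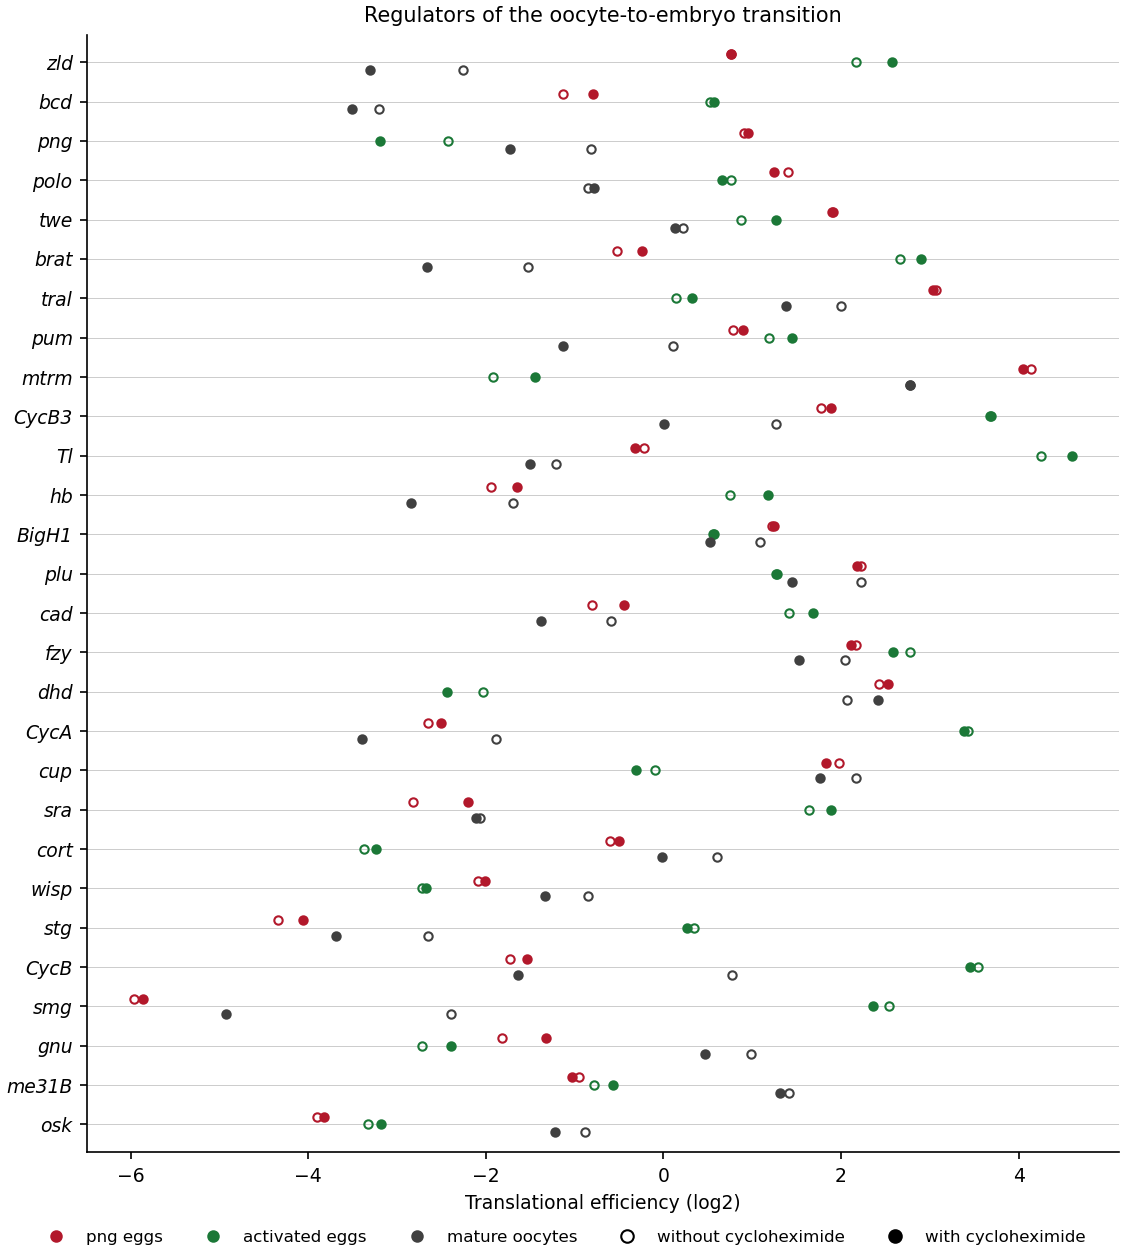
Translational efficiency (log2) of 28 regulators in png eggs (red), activated eggs (green) and mature oocytes (grey), each with 1 pair without (open) and 1 with (filled) cycloheximide, ordered from the largest rise in png eggs over oocytes at the top to the largest fall at the bottom. CycA in png eggs lies between the oocyte pairs, and both CycA and dhd lie far from activated eggs, while osk and me31B in png eggs lie close to activated eggs.

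Each gene list is given by the number and share of its members that were called, to be read against the 35.9% higher and 23.8% lower of all transcripts and their median difference of 0.21. In the list of cyclins and meiotic regulators 20 of 34 members rose and 5 fell (58.8% and 14.7%), with a median of 1.16. Endos, which encodes endosulfine, an inhibitor of the phosphatase PP2A, had 2690 and 2591 RPKM of footprints in png eggs, 242 and 236 RPKM in activated eggs and 641 and 734 RPKM in oocytes. It rose by 2.34 ± 0.23 over oocytes and stood 4.04 above activated eggs. The cyclin E inhibitor gene dap rose by 3.74 ± 0.31, with 318 and 343 RPKM in png eggs, against 20.2 and 18.5 RPKM in oocytes.

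DNA replication genes rose in 25 of 44 cases and fell in 5 (56.8% and 11.4%), with a median of 0.73. Cdc45, part of the replicative helicase, had 259 and 275 RPKM of footprints in png eggs, 26.3 and 22.0 RPKM in activated eggs and 31.7 and 29.8 RPKM in oocytes. Cdc45 in png eggs stood apart from both other groups: it was 3.65 ± 0.29 above oocytes and 4.02 above activated eggs. Mcm6, a subunit of the same helicase, rose by 1.79 ± 0.26. In activated eggs the same list had 9 members higher and 24 lower than oocytes, and in png eggs against activated eggs 31 were higher and 7 lower; the shares of all transcripts were 46.3% and 24.3% in activated eggs against oocytes, and 32.2% and 38.3% in png eggs against activated eggs.

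Cytosolic ribosomal protein mRNAs fell in 35 of 85 cases and rose in 1 (41.2% and 1.18%), with a median of -0.54. Their median efficiency was low in every group, at -3.02 in png eggs, -3.28 in activated eggs and -2.48 in oocytes. RpLP0, a protein of the ribosomal stalk, had 8.10 and 13.0 RPKM of footprints and 925 and 978 RPKM of RNA in png eggs, against 36.3 and 89.5 RPKM of footprints and 726 and 655 RPKM of RNA in oocytes (-2.83 ± 0.36). The member that rose was RpLP0-like (2.15), a relative of RpLP0 that the list took by its name. Activated eggs had 54 lower and 2 higher than oocytes, beside 24.3% and 46.3% of all transcripts. Png eggs had 17 higher and 6 lower than activated eggs, beside 32.2% and 38.3%. Their RNA was lower as well, called in 69 of the 85 beside 18.4% of all transcripts, with a median difference of -0.45 in RNA and -1.03 in footprints. Several ribosomal protein genes have near-identical copies, and nothing in the labels or tables says how the counting divided reads between them. In mitochondrial ribosomal proteins 25 of 74 fell and 4 rose (33.8% and 5.41%), with a median of -0.36, among them bonsai (-1.87) and mRpL32 (-1.52); without the oocyte pair without cycloheximide 19 fell and 18 rose, with a median of 0.01.

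Of the mRNA repressors and decay factors 23 of 51 rose and 10 fell (45.1% and 19.6%, median 0.50). The deadenylase gene twin fell by 3.53 ± 0.29, with 17.3 and 16.2 RPKM of footprints in png eggs, 448 and 390 RPKM in activated eggs and 172 and 103 RPKM in oocytes. Cpsf160, a subunit of the cleavage and polyadenylation factor, rose by 3.64 ± 0.29. Both directions thus occurred within this list. Axis and germ plasm genes rose in 11 and fell in 12 of 32 cases (34.4% and 37.5%, median 0.16), and piRNA pathway genes, which silence transposons in the germ line, rose in 5 and fell in 6 of 18 (27.8% and 33.3%, median -0.22). Aub, a Piwi family protein shared by both lists, had 11.8 and 10.5 RPKM in png eggs, 91.0 and 90.1 RPKM in activated eggs and 77.9 and 49.5 RPKM in oocytes (-2.55 ± 0.28), and the piRNA factor BoYb fell by 2.49 ± 0.28. Against activated eggs, 8 axis and germ plasm genes were higher in png eggs and 20 lower, beside 32.2% higher and 38.3% lower of all transcripts.

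Activators of the zygotic genome and chromatin genes rose in 15 and fell in 6 of 34 cases (44.1% and 17.6%, median 0.68). Clamp, a zinc finger pioneer factor, had 680 and 698 RPKM of footprints in png eggs, 782 and 893 RPKM in activated eggs and 54.0 and 51.9 RPKM in oocytes (3.61 ± 0.24), and was not called apart from activated eggs (-0.22, adjusted p = 0.416). The lamin gene Lam rose by 2.83 ± 0.22. Spindle motors and checkpoint genes rose in 14 and fell in 7 of 31 cases (45.2% and 22.6%, median 0.64), with tacc, a microtubule organiser, up by 1.80 and alphaTub84B up by 1.66; other alpha tubulin genes are near-identical to alphaTub84B, so its value is uncertain. In the anaphase-promoting complex list 5 of 16 rose and 2 fell (31.2% and 12.5%, median 0.31), so its share of rises was below that of all transcripts. Among the rises were the securin gene pim (2.41 ± 0.26) and the subunit gene APC10 (2.19 ± 0.33).

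In calcium and egg activation genes 5 of 13 rose and 1 fell (38.5% and 7.69%, median 0.34), a share of rises near that of all transcripts. Sl, a phospholipase C gamma, rose by 3.12 ± 0.29, with 18.2 and 16.3 RPKM of footprints in png eggs, against 1.84 and 1.57 RPKM in oocytes. The channel gene Trpm rose by 1.79 ± 0.30, with 10.4 and 7.67 RPKM in png eggs, against 1.61 and 2.27 RPKM in oocytes. Heat shock proteins and chaperones rose in 11 and fell in 3 of 23 cases (47.8% and 13.0%, median 0.64), with Gp93, the chaperone of the endoplasmic reticulum, up by 1.85 and the heat shock transcription factor gene Hsf down (-2.64). Translation factors rose in 15 and fell in 6 of 43 cases (34.9% and 14.0%, median 0.38), again near the share of rises of all transcripts; the termination factor eRF3 rose by 2.62 ± 0.29 and eIF4G1, the scaffold of the cap-binding complex, by 1.72 ± 0.24. Proteasome genes rose in 9 and fell in 2 of 32 (28.1% and 6.25%, median 0.32), less than the 35.9% and 23.8% of all transcripts, and Rpn9 and Rpn1 of its regulatory particle rose by 1.51 and 1.20, Rpn1 losing its call without the png egg pair with cycloheximide (1.02).

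Few genes of the respiratory chain were called. In the respiratory chain and ATP synthase list 55 of 68 were not called, 11 rose and 2 fell (16.2% and 2.94%, median 0.09), with ATPsynB at 1.64 and the cytochrome oxidase subunit cype at 1.07 among the rises; the call of cype was lost without the png egg pair with the drug (0.91). In glycolysis and central carbon metabolism 7 of 23 rose and 3 fell (30.4% and 13.0%, median 0.38). Men, a malic enzyme, had 127 and 112 RPKM of footprints in png eggs, 12.7 and 13.6 RPKM in activated eggs and 624 and 1018 RPKM in oocytes, so that it fell by 1.80 ± 0.28 while png eggs stayed 3.69 above activated eggs. The other malic enzyme, Men-b, fell by 1.86. Png eggs against activated eggs gave 17 higher and 2 lower in that list, beside 32.2% and 38.3% of all transcripts.

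Centring each pair on its median changed the balance of several lists without reversing those above that leaned furthest. Over all transcripts it gave 1891 higher and 2049 lower. Cyclins and meiotic regulators then had 19 higher and 8 lower, DNA replication genes 22 and 7, cytosolic ribosomal proteins 1 and 47, and mitochondrial ribosomal proteins 2 and 44. The balance tipped from more rises to more falls in the respiratory chain list (8 higher and 12 lower) and the anaphase-promoting complex list (5 and 6), and the medians of the axis and germ plasm list (-0.12) and of the respiratory chain list (-0.19) changed sign. Lower calls also grew to 6 in the glycolysis list, 11 in translation factors, 5 in heat shock proteins, and 4 each in the calcium and proteasome lists, and rises of the piRNA list came to 3.

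List counts depended on single pairs, and so did the calls over all transcripts, which became fewer without either png egg pair. The list counts below are to be read against that general loss of calls. Without the png egg pair without cycloheximide, DNA replication genes had 15 higher and 1 lower, cytosolic ribosomal proteins 1 and 15, mitochondrial ribosomal proteins 1 and 8, spindle genes 8 and 2, repressors and decay factors 16 and 6, axis and germ plasm genes 8 and 6, and zygotic activators and chromatin genes 11 and 2. The same setting gave 18 and 3 for cyclins and meiotic regulators, 4 and 0 for the anaphase-promoting complex, 3 and 0 for calcium genes, 5 and 0 for the proteasome, 7 and 1 for translation factors, 3 and 0 for the respiratory chain, 4 and 2 for heat shock proteins, 4 and 2 for glycolysis, 2 and 5 for the piRNA pathway and 9 and 4 for the 28 regulators. Without the png egg pair with cycloheximide, DNA replication genes had 10 higher and 3 lower, cytosolic ribosomal proteins 1 and 20, mitochondrial ribosomal proteins 0 and 16, spindle genes 7 and 6, repressors and decay factors 13 and 5, axis and germ plasm genes 7 and 11, and zygotic activators and chromatin genes 10 and 2. It gave 15 and 6 for cyclins and meiotic regulators, 4 and 1 for the anaphase-promoting complex, 4 and 1 for calcium genes, 1 and 0 for the proteasome, 3 and 2 for translation factors, 1 and 1 for the respiratory chain, 3 and 2 for heat shock proteins, 1 and 2 for glycolysis, 1 and 6 for the piRNA pathway and 8 and 6 for the regulators.

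Leaving out an oocyte pair moved lists as well, and the total of calls over all transcripts grew. The median difference over all transcripts was 0.43 without the pair without the drug, and -0.0047 without the pair with it. Without the first of these, the median of the axis and germ plasm list was 0.47. Without the pair without the drug, 28 respiratory chain genes, 16 proteasome genes, 8 genes each of the anaphase-promoting complex and calcium lists and 17 regulators were higher, cytosolic ribosomal proteins had 5 higher, cyclins and meiotic regulators 3 lower and regulators 5 lower, and the median of the piRNA list was 0.14. Without the pair with it, 12 respiratory chain genes were higher and 12 lower, lower calls came to 41 in mitochondrial ribosomal proteins, 8 in cyclins and meiotic regulators, 5 in the anaphase-promoting complex and 3 in calcium genes, and the medians of the axis (-0.40) and respiratory chain (-0.12) lists changed sign.

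**Figure D5:**
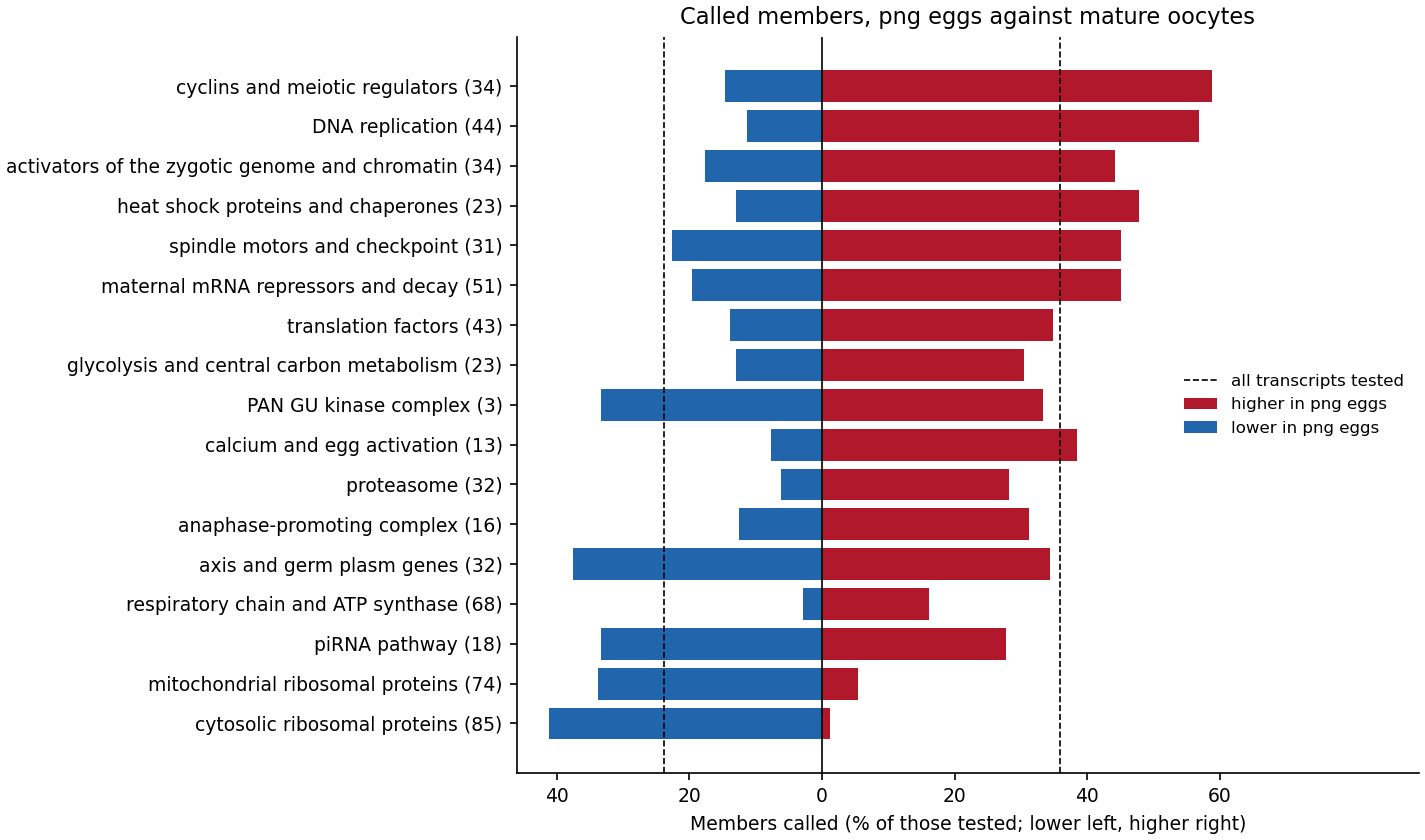
Share of the tested members of each gene list (number in brackets) that were called higher (right, red) or lower (left, blue) in png eggs against mature oocytes, ordered by median difference. Dashed lines give the 35.9% higher and 23.8% lower of all 5840 transcripts; cyclins and meiotic regulators and DNA replication genes reach furthest to the right and cytosolic ribosomal protein genes furthest to the left.

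Polysome gradients of other oocytes and activated eggs of wild type, 2 of each, gave a separate readout for 4995 of the transcripts, the share of an mRNA in medium and heavy polysomes (5 or more ribosomes); png eggs were not run on gradients here. No gene in those tables had a heavy polysome level under 4, so mRNAs missing from heavy polysomes were not covered. The transcripts that rose in png eggs had a median polysomal share of 26.2% in wild type eggs and 36.9% in oocytes, those that fell 31.7% and 32.5%, and all transcripts 27.4% and 34.8%. The median polysomal share of wild type eggs minus that of oocytes, taken per transcript, was -11.4 percentage points for those that rose in png eggs and -2.27 points for those that fell, beside -7.91 points for all. Across these transcripts the difference of png eggs from oocytes in translational efficiency had a Spearman's rho of -0.20 with that polysomal change, whereas the difference of activated eggs from oocytes had 0.62; the 2 comparisons share the oocyte libraries, and transcripts are not independent.

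Transcripts well loaded in oocyte gradients rose more often in png eggs. In the quartile with the highest polysomal share in oocytes 45.4% rose and 13.7% fell, with a median difference of 0.51, and in the lowest quartile 24.8% rose and 32.3% fell, with a median of -0.19. In activated eggs the same quartiles had medians of -0.10 and 0.90. From the lowest to the highest quartile, the median footprint difference of png eggs from oocytes was 0.00089, 0.32, 0.31 and 0.32. The median RNA difference was 0.23, 0.19, 0.08 and -0.12. Above the lowest quartile, the medians thus moved in RNA and hardly in footprints. The longest coding sequences went with more rises. Of transcripts whose gene's longest coding sequence was 2379 bases or more, 45.2% rose and 18.4% fell (median 0.56). In the quartiles below, from the shortest (up to 882 bases) upward, 31.3%, 33.2% and 34.0% rose and 20.3%, 27.3% and 28.6% fell. Their medians were 0.13, 0.10 and 0.06, so only the top quartile stood apart (Spearman's rho 0.10 across 5782 transcripts). RNA level, taken from the activated egg libraries, had little relation to the difference (Spearman's rho 0.04 across 5840 transcripts).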

How the data were processed

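The authors deposited RPKM values of 12 libraries (footprints and RNA) in 1 table, per the file headers; the gradient files hold normalized RPKM, per the file headers, and yeast mRNA was added to the fractions, per the series design. Each polysomal share was computed here as medium and heavy polysomes over the sum of all fractions, per gradient. Footprint-series RNA was poly(A)-selected and fragmented, per the labels' protocols. FastQC, TopHat 1.3.2, HTSeq, Bowtie and the build dm3 are named in the submitters' processing notes, without roles. Gene names for 5784 of 5842 transcripts came from RefSeq records of Release 6 plus ISO1 MT, by accession, and coding lengths from an Ensembl annotation of BDGP6; no coordinates or sequences were used.

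Tests used limma 3.58.1 (lmFit, eBayes with a trend) in R 4.3.3 on log2(RPKM + 1), two-sided, with Benjamini-Hochberg adjustment; folds on this scale understate the change of low transcripts. Every adjusted p-value comes from limma. The model held 6 library pairs with a term for cycloheximide, which is the replicate block, since the drug state numbers the pairs. The code was tested on simulated data. Reads were recovered where RPKM × (coding length - 50 bases) fell on whole numbers: 99.0% or more of values under 300 reads lay within 0.1 of one. Count models were not used because the table holds RPKM. Summaries and figures were made with pandas 2.3.3, scipy 1.17.1, matplotlib 3.10.9 and numpy 2.4.6 under python 3.11.15.

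The comparison, members and gene lists were chosen with earlier results of these data known; list patterns were tightened by gene name after the table was opened. Named genes are the 14 largest rises and 14 largest falls among called transcripts with a gene name, a mean RNA of at least 10 RPKM and all 4 pair differences of 1 sign, every measured regulator, both measured follicle cell markers, and 2 called members of each other list by lowest p. Alternatives covered pseudocounts of 0.5 and 5, filters, centring, rescaling without follicle cell genes, model terms and each pair left out.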

Additional observations from a re-analysis of the deposited data

Results flagged for a closer look

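Of the 88 named genes, 71 differed in translational efficiency between png eggs and activated eggs, which is the test of whether the changes from oocytes differ between the 2 kinds of egg (limma, adjusted p under 0.05); over all transcripts 32.2% were higher and 38.3% lower. Many of the 88 were chosen by values of the same png egg pairs, so the count of 71 is no separate evidence. Values in brackets are log2 differences of png eggs from activated eggs. In 18 of the 71, png eggs and activated eggs were called on opposite sides of oocytes. Above oocytes in png eggs and below them in activated eggs were path (6.75), mtrm (5.78), endos (4.04), png (3.74), tral (2.82) and Rpn1 (2.04). Below oocytes in png eggs and above them in activated eggs were smg (-8.36), CG42354 (-7.89), CG34159 (-6.15), CG18004 (-5.95), cold (-5.81), twin (-5.73), CREG (-5.30), CycB (-5.13), Rexo5 (-4.85), stg (-4.51), aub (-3.61) and BoYb (-3.58). The calls of Rpn1, mtrm, CycB and stg against oocytes were lost under some alternatives.

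Among the other genes with the largest changes, png eggs were higher than activated eggs in shams (3.64), GlcAT-S (2.51), smo (2.43), lin (2.30), mnd (1.71), CG14657 (1.49), p120ctn (1.25), PEK (0.81) and CG5235 (0.61), and lower in Cat (-5.82), Paip2 (-4.58), pst (-4.22), CG13625 (-3.62), CG13384 (-3.18), CG12065 (-2.95) and CG12942 (-1.15). Among the other regulators, png eggs were higher in dhd (4.71), cort (2.75), cup (2.11), gnu (0.99), plu (0.93), twe (0.84), BigH1 (0.66) and polo (0.61), and lower in CycA (-5.99), Tl (-4.70), sra (-4.27), brat (-3.16), hb (-2.76), cad (-2.17), CycB3 (-1.85), zld (-1.62), bcd (-1.51) and fzy (-0.54). Among the other list members, png eggs were higher in Cdc45 (4.02), Men (3.69), dap (2.65), APC10 (2.53), Mcm6 (2.14), tacc (1.58), Rpn9 (1.57), Lam (1.34), eRF3 (1.25), Cpsf160 (0.96), eIF4G1 (0.92), ATPsynB (0.83), cype (0.80), alphaTub84B (0.76), sl (0.74) and Gp93 (0.73), and lower in Hsf (-2.98), Men-b (-1.63) and pim (-0.66).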

How the results depend on the processing

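No total of called transcripts moved by more than 1.5 times when the pseudocount, the filters, the scaling, the trend or the samples in the fit were changed, or when an activated egg or oocyte pair was left out, for translational efficiency, footprints or RNA. Without the term for cycloheximide, which is the replicate block, 2106 transcripts were higher and 1375 lower. With 1 pair left out in turn, the total of called transcripts ranged from 2128 to 4068, those higher from 1252 to 2775 and those lower from 680 to 1974; the group with 1 pair is then assumed to vary like the others. The RNA total of 3195 was 291 in the model of 12 libraries and ranged from 1723 to 3911 with pairs left out.

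Of 79 called named genes, 68 were called the same way under all 17 alternatives, and 11 lost the call under at least 1 (Cp16, CycB, CycB3, Rpn1, Tl, cort, cype, mtrm, pum, stg and wisp). Of the 9 uncalled genes, 8 gained a call under at least 1 alternative: BigH1, CycA, cad, fzy, hb and plu higher without the oocyte pair without cycloheximide, CycA lower and dhd higher without the pair with it, and sra lower without that pair and with pairs centred. Signs turned in CycB and in 6 of these 9. Centred on the median, CycA was at -0.22 and dhd at -0.051, and rescaled without follicle cell genes CycA was at -0.026. With pairs left out, CycA ranged from -0.72 to 0.84, CycB from -2.42 to 0.029, cad from -0.19 to 0.91, cup from -0.17 to 0.049, dhd from -0.016 to 0.48, hb from -0.28 to 1.22 and plu from -0.010 to 0.74. The causes were not tested. Apart from the regulators and follicle cell markers, the named genes were chosen for large changes or low p-values. Their counts therefore do not stand for all called transcripts. Low oocyte footprint depth, with a median of 96 reads per transcript in the library with cycloheximide, limits the values of poorly translated mRNAs.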
